A study of Mus musculus with 8 samples.

Results

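Immediate-early genes were followed through 8 mouse RNA sequencing libraries by reading the rows of 10 listed symbols, Fos, Fosb, Egr1, Egr2, Egr3, Jun, Junb, Ier2, Ier3 and Dusp1, out of 24888 genes in the table. All 10 were found. They were listed because some of them differed with T09 in opposite directions in both stem cell states, as judged on their levels in all 8 libraries. Every value of theirs is therefore a description, and no test is attached to any of them.

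The libraries all came from E14 mouse embryonic stem cells (ESC), with 1 library per group and no replicate. T09 (T0901317, a compound that activates the liver X receptors) was given for 3 days, at a dose written as 1 uM/mL, to ESC and to expanded potential stem cells (EPSC), which are ESC carried for 5 passages in a cocktail of inhibitors, and both states were also sequenced without T09. Type I and Type III blastoids, stem cell aggregates that model the blastocyst, were picked by hand on day 5 and are labelled as derived from EPSC treated with T09. Day 2 blastoids were harvested 48 hours after EPSC received siNr1h2, an siRNA named for the receptor gene Nr1h2, or siNT, its control. How many blastoids went into a library is not stated.

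The media differed in agents that act on the kinases upstream of these genes. Both stem cell media held LIF, 3 µM CHIR99021 and 1 µM PD0325901, an inhibitor of the kinase MEK that feeds ERK, and ESC medium held 15% serum. EPSC medium held 20% serum replacement in place of serum, and added 4 µM JNK Inhibitor VIII, 10 µM SB203580, an inhibitor of p38, 0.3 µM A-419259, an inhibitor of Src family kinases, and 5 µM XAV939. The blastoid media listed 12.5 ng/mL FGF4 and 3 µM CHIR99021, with 5 ng/mL BMP4 and A83-01, an inhibitor of TGF-beta type receptors, added after the seeding day, and none of the inhibitors of MEK, JNK, p38 or Src.

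Immediate-early genes are transcribed within minutes of a stimulus, without new protein being made first, through factors that already sit in the cell. Serum and growth factors act largely through ERK, which phosphorylates ternary complex factors bound beside SRF at CArG boxes, and through CREB at cyclic AMP response elements. The mRNAs are short-lived, so a level reflects signalling shortly before harvest. Fos, Fosb, Jun and Junb encode leucine zipper proteins that pair to form AP-1, Egr1, Egr2 and Egr3 encode zinc finger transcription factors, Ier2 and Ier3 encode small regulators, and Dusp1 encodes a phosphatase that switches off MAP kinases.

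The stretches before the start sites of Fos and Fosb are shown because these genes differed with T09 in opposite directions in ESC and EPSC, that of Egr2 because it was lower with T09 in EPSC, and those of Dusp1 and Jun because their levels followed other patterns. The sequences are RefSeq's, on build GRCm38.p6, which is not the build of the counts (mm9), and were matched by symbol. Of the 10 genes 7 had a promoter entry, and Egr1, Egr3 and Ier2 had none. Each stretch covers positions 200 to 31 before the start, which is 170 bases, written along the gene's strand. Sequence outside these positions was not read, so a stretch without a CArG box does not show that the gene lacks one. Capitals mark a CArG box, TGACG, the core of the cyclic AMP response element, on either strand, or TGACNTCA, the full element and its relatives.
Fos, chr12:85473690-85473859, plus strand: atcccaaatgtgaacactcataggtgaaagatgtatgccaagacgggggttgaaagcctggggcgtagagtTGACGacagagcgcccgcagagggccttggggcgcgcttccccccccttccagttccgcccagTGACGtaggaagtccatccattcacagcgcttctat
Fosb, chr7:19310076-19310245, minus strand: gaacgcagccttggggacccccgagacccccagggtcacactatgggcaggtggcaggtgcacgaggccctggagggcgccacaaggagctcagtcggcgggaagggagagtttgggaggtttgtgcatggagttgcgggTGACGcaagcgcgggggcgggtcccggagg
Egr2, chr10:67537669-67537838, plus strand: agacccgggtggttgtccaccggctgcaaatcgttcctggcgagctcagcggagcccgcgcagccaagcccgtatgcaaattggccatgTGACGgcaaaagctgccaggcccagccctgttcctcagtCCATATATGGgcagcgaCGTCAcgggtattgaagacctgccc
Dusp1, chr17:26508503-26508672, minus strand: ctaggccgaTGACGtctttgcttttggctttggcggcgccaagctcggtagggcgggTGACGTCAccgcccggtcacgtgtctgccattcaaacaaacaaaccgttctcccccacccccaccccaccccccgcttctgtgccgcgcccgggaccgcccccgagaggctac
Jun, chr4:95052253-95052422, minus strand: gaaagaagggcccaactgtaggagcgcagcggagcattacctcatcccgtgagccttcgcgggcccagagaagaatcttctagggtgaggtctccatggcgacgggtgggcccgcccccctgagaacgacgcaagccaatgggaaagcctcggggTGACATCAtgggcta

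Egr2 had 5 listed starts, and 4 of the 5 windows held a CArG box, which 1.02% of all 32851 windows of this length held. The start shown for Egr2 was chosen for its CArG box, and the windows of 2 other listed starts hold the same box. Fos, Fosb, Egr2, Dusp1 and Junb held TGACG, which 12.6% of all windows held. Dusp1 and Jun held TGACNTCA, found in 5.38% of windows, and in Dusp1 it overlaps TGACG on both strands. Ier3 held none of these letters in this window. A match is a description of letters and not a measured binding site.

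Total counts ran from 24666260 to 40781415 per library, and levels are given as CPM, which are counts scaled with TMM factors to a common library total, so a gene with 0 counts may stand at up to 0.0741 to 0.114 CPM (3 counts over the scaled total). Ier2, Dusp1 and Junb rested on at least 289 counts in every library, whereas Egr1 had between 12 and 3221, Egr2 never exceeded 50 and Egr3 never exceeded 30. A pair of libraries was said to differ in a gene when the log2 ratio reached 2-fold, its 95% exact counting interval excluded equality and 1 of the libraries held at least 20 counts. The interval covers counting error only, since the spread between cultures was not measured. In bulk RNA, fewer cells of a type and less RNA per cell cannot be told apart.

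Abca1, a cholesterol exporter and standard target of the liver X receptors, stood at 211 CPM in T09-treated EPSC and 18.3 in EPSC, and at 340 in T09-treated ESC and 51.0 in ESC. It stood at 207 CPM in Type I and 5.38 in Type III blastoids, although both carry the T09 label, and at 5.07 in siNr1h2 and 3.40 in siNT blastoids. The 5 pluripotency markers Pou5f1, Sox2, Nanog, Zfp42 and Esrrb summed to 3851 CPM in T09-treated EPSC, 3503 in EPSC, 4776 in T09-treated ESC and 5087 in ESC. They summed to 295 in Type I, 664 in Type III, 1741 in siNr1h2 and 1809 in siNT blastoids. The 6 primitive endoderm markers summed to 2885 in Type I, 2072 in Type III, 716 in siNr1h2 and 787 in siNT blastoids, against 8.65 to 37.6 in the stem cells. The 7 trophectoderm markers summed to 1353 in Type I, 1482 in Type III, 222 in siNr1h2 and 229 in siNT blastoids, against 96.6 to 118 in the stem cells. Elf5, a defining gene of trophoblast stem cells, was at or under 0.395 CPM in every library, while Krt8 and Krt18, keratins of the trophectoderm and other epithelia, stood at 717 and 553 CPM in Type I. Those keratins made most of the Type I sum, whereas Tfap2c made most of the EPSC sums, at 104 CPM with T09 and 76.7 CPM without. Against T09-treated EPSC, 4 of 6 trophectoderm markers with enough counts were at least 2-fold higher and 1 lower in each day 5 type. Over all genes, 22.7% were higher and 18.1% lower in Type I, and 21.7% higher and 16.0% lower in Type III. The 7 fibroblast markers summed to 1.75 to 9.58 CPM over the 8 libraries, with Col3a1 and Dcn at 0 counts in the 4 stem cell libraries.

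**Figure D1:**
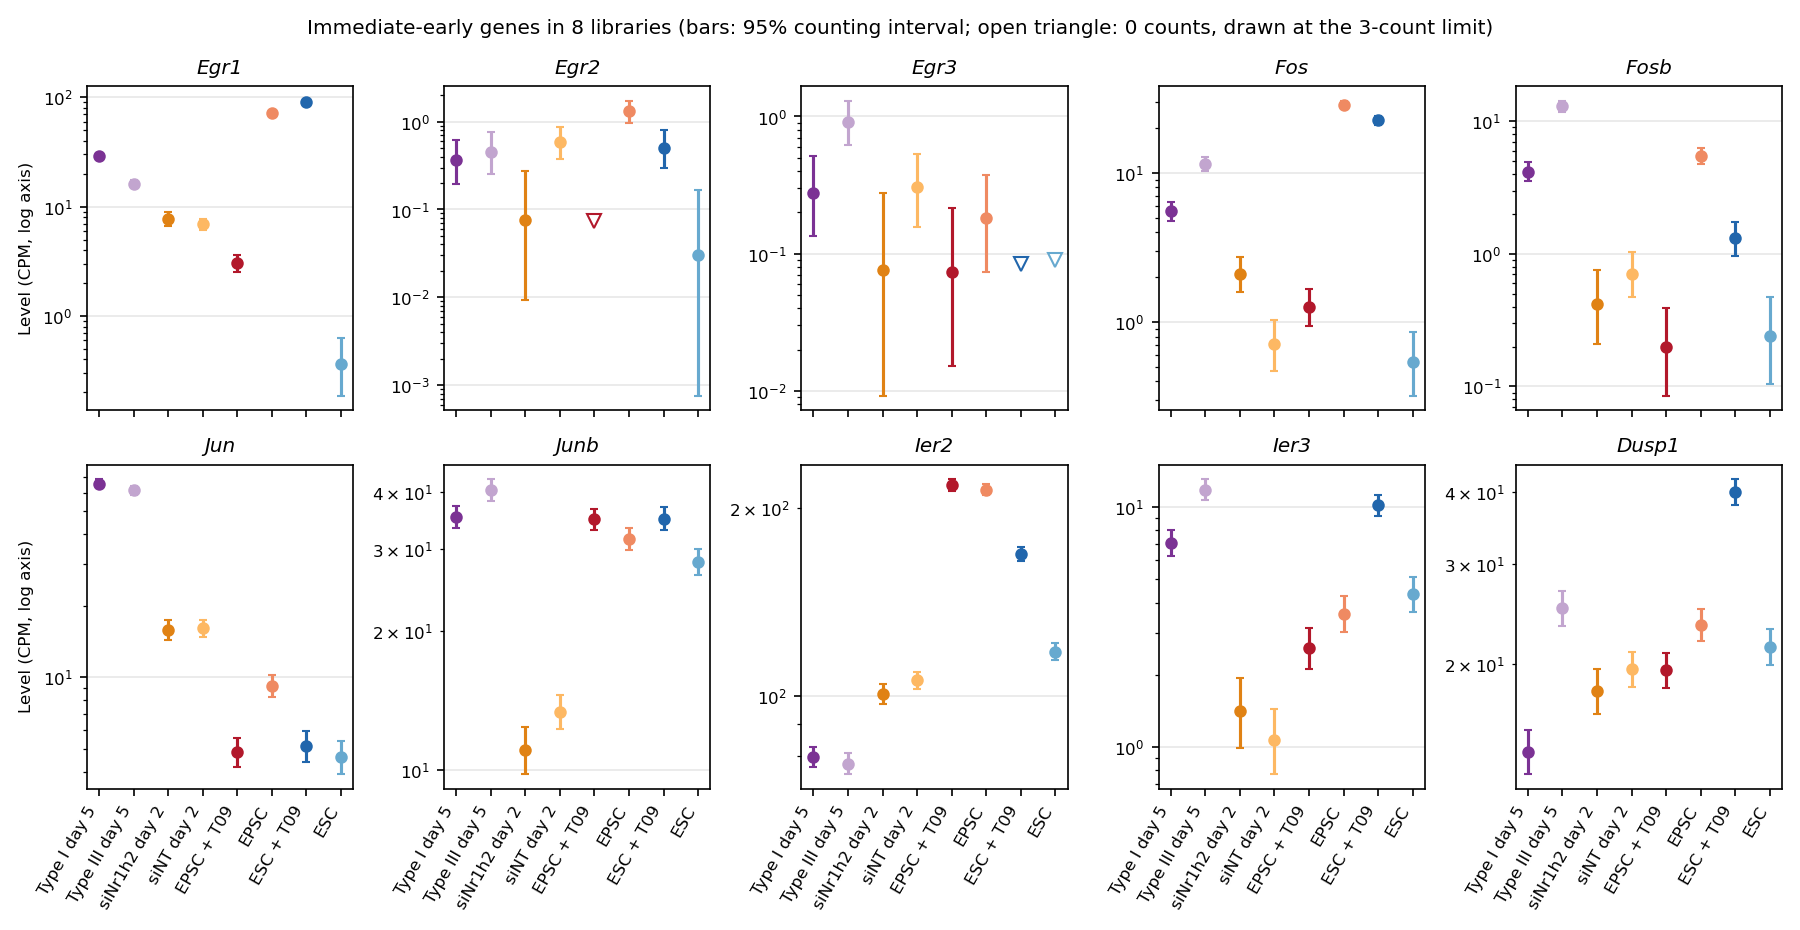
Level of each of the 10 genes in CPM on a log axis (vertical) in the 8 libraries (horizontal), 1 library per group, with 95% counting intervals as bars and open triangles at the 3-count limit for 0 counts. Egr1 and Fos are high in untreated EPSC and in T09-treated ESC and low in T09-treated EPSC and in untreated ESC, and Jun is highest in both day 5 blastoids.

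With T09, Egr1, Fos and Fosb differed in opposite directions in the 2 states. In EPSC, Egr1, Egr2, Fos and Fosb all had ratios more than 16-fold lower with T09, although the intervals of Egr2 and Fosb reached up to log2 -3.79, short of 16-fold. In ESC, Egr1, Fos, Fosb and Ier3 were at least 2-fold higher with T09, and Egr2 had 18 counts with T09 and 1 without, too few to be called. Junb, Ier2, Jun and Dusp1 stayed within 2-fold in both states. Egr1, Fos and Fosb passed the 2-fold rule in both states with opposite signs, as did 25 of 12944 genes (0.193%) in this pair of directions, while 0.085% had the reverse pair. That pattern chose the genes, so nothing is read from it.

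Egr1, the most widely used marker of growth factor signalling in this family, was at 3.04 CPM in T09-treated EPSC and 72.2 CPM in EPSC, a log2 ratio of -4.55 (interval -4.84 to -4.31). In ESC it was at 89.9 CPM with T09 and 0.362 CPM without, on 3221 and 12 counts, a log2 ratio of 7.74 (7.15 to 8.91). Over the 8 libraries it spanned 7.75 log2 units, against a median span of 1.45 over 15341 genes with at least 20 counts in 1 library, and 99.2% of those genes spanned less. T09-treated ESC and untreated EPSC were the highest libraries and untreated ESC the lowest.

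Fos, the prototype partner of Jun in AP-1, had 1.26 CPM in T09-treated EPSC and 28.7 CPM in EPSC (log2 -4.45, interval -4.94 to -4.10). It had 22.5 CPM in T09-treated ESC and 0.543 CPM in ESC (log2 5.23, interval 4.71 to 6.14). Fosb, its closest relative, had 0.198 CPM in T09-treated EPSC and 5.50 CPM in EPSC, on 8 and 210 counts (log2 -4.48, interval -6.03 to -3.79). It had 1.31 CPM in T09-treated ESC and 0.241 CPM in ESC, on 47 and 8 counts (log2 2.19, interval 1.35 to 3.74). Both genes shared the order of Egr1 within the stem cells in that untreated EPSC and T09-treated ESC lay above the other libraries.

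Egr2, which is best known from hindbrain and Schwann cell development, had 0 counts in T09-treated EPSC and 50 in EPSC. With the 0 counts set at the 3-count limit it was 17.7-fold lower with T09 there, and its interval reached up to log2 -3.79. It had 18 counts in T09-treated ESC and 1 in ESC, under the minimum of 20, with a log2 ratio of 2.67 and an interval of 1.40 to 9.44. Egr3, a relative of Egr2, had 3 counts in T09-treated EPSC and 7 in EPSC, and 0 in both ESC libraries, so no difference was detectable at this depth.

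The remaining AP-1 genes differed less with T09. Jun had 4.84 CPM in T09-treated EPSC and 9.22 CPM in EPSC, a log2 ratio of -0.92 (interval -1.19 to -0.67) that lay just short of 2-fold. In ESC it had 5.13 CPM with T09 and 4.61 CPM without (log2 0.15, interval -0.16 to 0.47). Junb had 34.9 CPM in T09-treated EPSC and 31.6 CPM in EPSC (log2 0.14), and 35.0 CPM in T09-treated ESC and 28.2 CPM in ESC (log2 0.31). Junb is annotated as overlapping Prdx2 on the opposite strand, and Jun as overlapping Junos. Whether counting used the strand is not stated, so their counts are less certain.

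Ier3, a survival regulator, had 2.59 CPM in T09-treated EPSC and 3.59 CPM in EPSC (log2 -0.46, interval -0.85 to -0.09). In ESC it had 10.2 CPM with T09 and 4.34 CPM without (log2 1.22, interval 0.95 to 1.52), just past 2-fold. Dusp1 had 19.5 CPM in T09-treated EPSC and 23.5 CPM in EPSC (log2 -0.26, interval -0.41 to -0.13). In ESC it had 40.0 CPM with T09 and 21.5 CPM without (log2 0.90, interval 0.77 to 1.03), just under 2-fold. Ier3 and Dusp1 thus had the same pair of directions as Egr1 at a smaller size. A part of the Dusp1 locus is annotated as overlapping Ergic1, on the opposite strand. Ier2 had 217 CPM in T09-treated EPSC and 214 CPM in EPSC (log2 0.02, interval -0.02 to 0.07), and 169 CPM in T09-treated ESC and 118 CPM in ESC (log2 0.52, interval 0.46 to 0.58).

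In EPSC, with T09, 4 of the 9 genes with enough counts were past 2-fold below the untreated library and 0 above it, where 4.19% of 13632 genes differed, 0.895% higher and 3.29% lower. In ESC 4 of 8 were higher and 0 lower, where 3.91% of 13412 genes differed, 1.39% higher and 2.53% lower. The fibroblast markers summed to 1.75 CPM in T09-treated EPSC and 3.74 CPM in EPSC, and to 5.33 CPM in T09-treated ESC and 5.09 CPM in ESC, and their part in these levels was not tested. Set against one another, the T09 ratios of ESC minus EPSC were 12.29 for Egr1 (interval 11.49 to 13.09), 9.69 for Fos (8.94 to 10.44), 6.68 for Fosb (5.33 to 8.02), 1.68 for Ier3 (1.22 to 2.14), 1.16 for Dusp1 (0.97 to 1.35) and 1.07 for Jun (0.68 to 1.47). The value was 0.49 for Ier2 (0.42 to 0.57) and 0.17 for Junb (0.01 to 0.34). For Egr2 it was 7.41 (4.72 to 10.10), on 0 counts in T09-treated EPSC and 1 in ESC. Of 14100 genes, 6.55% had ratios at least 2-fold apart with an interval off 0, with 3.91% higher in ESC and 2.65% lower. Of the immediate-early genes, 7 did, all higher in ESC. The ESC and EPSC ratios share no library, and each of the 4 libraries is 1 culture.

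**Figure D2:**
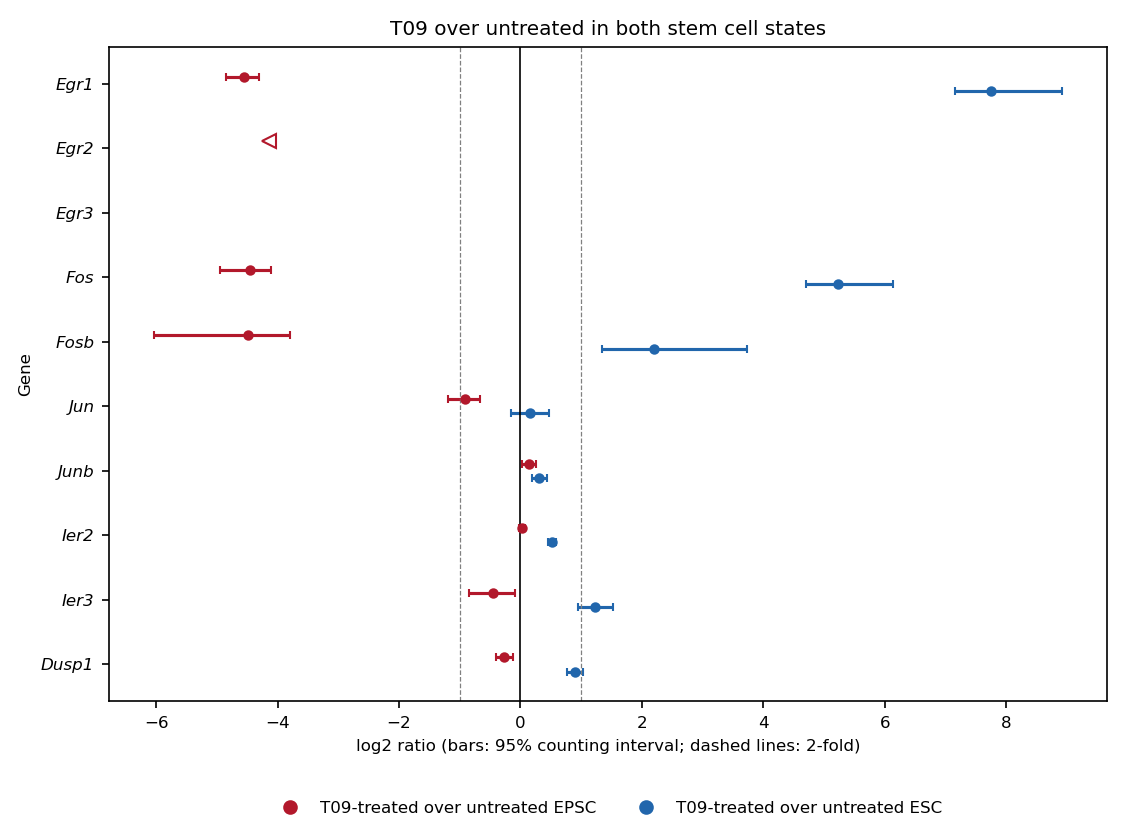
Log2 ratio of T09-treated over untreated libraries (horizontal) for each gene (vertical), in EPSC in red and ESC in blue, 1 library per group, with 95% counting intervals as bars, dashed lines at 2-fold and an open triangle for a bound against 0 counts. Egr1 lies at -4.55 in EPSC and 7.74 in ESC, and genes with under 20 counts in both libraries of a pair are left out, which holds for Egr3 in both states and for Egr2 in ESC.

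A wider list of 52 further immediate-early genes was read beside them. Over all genes, 0.895% were higher and 3.29% lower with T09 in EPSC, and 1.39% higher and 2.53% lower in ESC. With T09 in EPSC 1 of 48 with enough counts was at least 2-fold higher and 4 were lower. Socs3, the feedback inhibitor of LIF signalling, stood at 169 CPM with T09 and 64.5 CPM without (log2 1.38). Ctgf and Cyr61, targets of both SRF and YAP, stood at -1.40 and -1.08, and the small Maf gene Maff and the Fos relative Fosl2 at -1.07 and -1.03. With T09 in ESC 2 of 48 were higher and 0 lower, namely Bhlhe40, a clock and hypoxia repressor, at 89.0 CPM with T09 and 29.0 CPM without (log2 1.61), and Maff at 7.20 CPM with T09 and 2.92 CPM without (log2 1.28). Maff was the only gene of the 48 past 2-fold in both states, in the same pair of directions as Egr1. The medians of the wider list were -0.10 in EPSC and 0.06 in ESC, beside -0.0013 and 0.007 over all genes with enough counts.

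Lists of genes that carry or limit the ERK signal were read beside them, where 4.19% of all genes differed with T09 in EPSC and 3.91% in ESC, so counts near 0 are what lists of these sizes would hold at the background share. Of 22 upstream kinases and transcription factors, among them Srf and Elk1, 0 passed 2-fold in either direction in EPSC or in ESC. Of 8 ERK feedback genes, 0 passed in either state. With T09 in EPSC 7 of the 8 lay above 0, at a median log2 ratio of 0.30, and in ESC 3 of the 8, at a median of -0.05. Dusp6, which encodes the phosphatase that removes phosphate from ERK, stood at 41.9 CPM in T09-treated EPSC and 32.4 CPM in EPSC, and at 5.66 CPM in T09-treated ESC and 6.90 CPM in ESC. Spry4, an ERK-induced inhibitor of receptor signalling, stood at 59.9 CPM in T09-treated EPSC and 32.7 CPM in EPSC, and at 13.8 CPM in T09-treated ESC and 9.86 CPM in ESC. Over all genes, 8.35% were at least 2-fold higher in EPSC than in ESC with T09 and 9.58% without. Dusp6 and Spry4 were the 2 of 8 that were at least 2-fold higher in EPSC than in ESC both with and without T09, and 0 were lower. Spry2 and Etv5 were set the other way without T09 and within 2-fold, at 52.0 and 329 CPM in EPSC and at 94.1 and 493 CPM in ESC. The 8 genes summed to 793 CPM in T09-treated EPSC and 667 CPM in EPSC, and to 746 CPM in T09-treated ESC and 793 CPM in ESC.

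Other stress-linked lists were read for the same libraries. Over all genes, 0.895% were higher and 3.29% lower with T09 in EPSC, and 1.39% higher and 2.53% lower in ESC. Hypoxia response genes had 0 of 12 higher and 4 lower with T09 in EPSC, and 3 of 11 higher and 0 lower with T09 in ESC. Ndrg1, Bnip3 and Egln3 passed in both states, with Egln3, an oxygen-sensing hydroxylase gene, at 2.00 CPM in T09-treated EPSC and 9.45 CPM in EPSC, and at 10.4 CPM in T09-treated ESC and 4.79 CPM in ESC. The summed hypoxia level was 1063 CPM in T09-treated EPSC and 1242 CPM in EPSC, and 2877 CPM in T09-treated ESC and 2010 CPM in ESC. Their part in the levels of Egr1 and Fos was not tested. Of 11 heat shock genes 0 passed in either state. Among 9 actin and SRF target genes with enough counts, Acta2, Tagln and Myl9 were lower with T09 in EPSC (log2 -1.60, -1.49 and -1.04), and in ESC Myl9 was the 1 of 8 that passed, also lower (log2 -1.18).

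**Figure D3:**
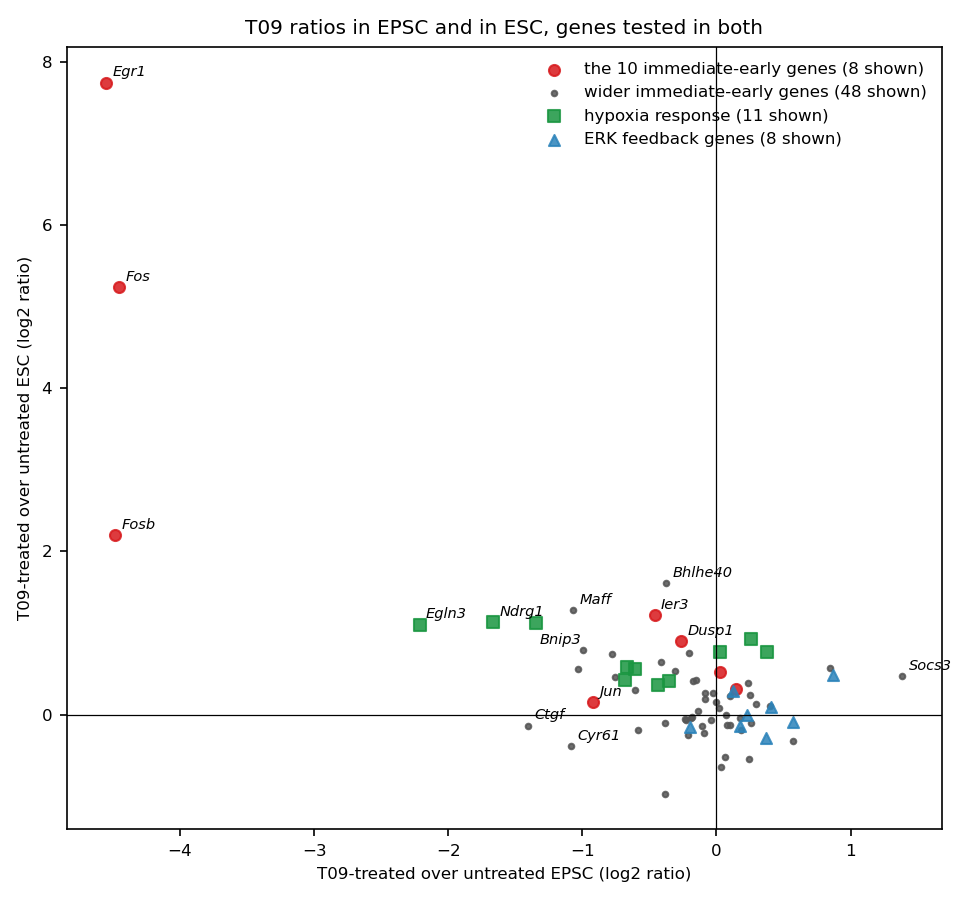
Log2 ratio of T09-treated over untreated EPSC (horizontal) against that in ESC (vertical) for genes with enough counts in both pairs, with the 10 immediate-early genes in red, the wider list in grey, hypoxia genes in green and ERK feedback genes in blue. Egr1, Fos and Fosb lie alone at the upper left, and Maff, Ndrg1, Bnip3 and Egln3 lie nearer the centre in the same quadrant. Of the 8 ERK feedback genes 0 pass 2-fold on either axis, and 7 lie above 0 in EPSC and 3 in ESC.

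Between the states the same 4 libraries can be paired the other way, and these ratios share libraries with those above. In the untreated pair 4 of 9 genes were at least 2-fold higher in EPSC than in ESC and 0 lower, where 17.6% of 13847 genes differed, 9.58% higher and 8.05% lower. Egr1 stood at log2 7.44, Fos at 5.59 and Fosb at 4.22, and Egr2 had 50 counts in EPSC and 1 in ESC (log2 3.99, interval 2.90 to 10.77). In the T09-treated pair 0 of 8 were higher in EPSC and 5 lower, where 18.1% of 13712 genes differed, 8.35% higher and 9.79% lower. There Egr1 stood at -4.86, Fos at -4.11, Fosb at -2.45, Ier3 at -1.95 and Dusp1 at -1.03, the last just past 2-fold. Egr2 had 0 counts in T09-treated EPSC and 18 in T09-treated ESC. With the 0 counts set at the 3-count limit it was 6.78-fold lower, and its interval reached up to log2 -2.31. No order between EPSC and ESC therefore held for Egr1, Fos or Fosb over both treatments.

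Ier2 was the exception with an order that held, at log2 0.86 (interval 0.81 to 0.92) in the untreated pair and 0.37 (0.32 to 0.41) in the treated pair, higher in EPSC both times and under 2-fold. Jun stood at log2 0.99 in the untreated pair, just short of 2-fold, and at -0.08 in the treated pair, where its interval of -0.38 to 0.21 included equality. Junb stood at 0.17 in the untreated pair and at -0.004 in the treated pair (interval -0.12 to 0.11). In the untreated pair the intervals of Ier3 (log2 -0.27, interval -0.62 to 0.07) and Dusp1 (0.13, interval -0.02 to 0.27) included equality. Hypoxia genes had 9 of 11 lower in EPSC in the treated pair and 2 of 12 in the untreated pair. Over all genes, 9.79% were lower in the treated pair and 8.05% in the untreated pair. The part of the hypoxia genes in these ratios was not tested.

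In the wider list, the untreated pair had 8 of 48 genes higher in EPSC than in ESC and 2 lower, and the treated pair 7 higher and 5 lower. Over all genes, 9.58% were higher and 8.05% lower in the untreated pair, and 8.35% higher and 9.79% lower in the treated pair. Dusp4 and Dusp5, which encode phosphatases of MAP kinases, were higher in EPSC in both pairs, unlike Dusp1. Dusp4 was at 6.73 CPM in EPSC and 1.05 CPM in ESC, and at 6.32 CPM in T09-treated EPSC and 1.28 CPM in T09-treated ESC. Dusp5 was at 9.30 CPM in EPSC and 1.21 CPM in ESC, and at 5.41 CPM in T09-treated EPSC and 2.06 CPM in T09-treated ESC. Plk3, a stress kinase gene, stood at 2.08 and 1.94 in the untreated and treated pairs, and Ier5, a regulator of heat shock factor, at -2.04 and -2.95. Jund, the Jun relative that is least dependent on stimuli, stood at 1.52 in the untreated pair. In the treated pair Jund lay within 2-fold, at 237 CPM in T09-treated EPSC and 172 CPM in T09-treated ESC.

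In day 2 blastoids, the knockdown first has to be read from its target. Nr1h2, which encodes the receptor LXR beta, stood at 37.7 CPM in siNr1h2 and 53.9 CPM in siNT blastoids, which is 70.0% of the siNT level (interval 64.9 to 75.6%). In the other libraries it ranged between 52.6 CPM in Type I and 92.0 CPM in T09-treated EPSC. Of the 9 immediate-early genes with enough counts, 1 was at least 2-fold higher and 1 lower in siNr1h2, where 3.66% of 14127 genes differed, 1.49% higher and 2.17% lower. Fos stood at 2.10 CPM in siNr1h2 and 0.711 CPM in siNT, on 55 and 28 counts (log2 1.48, interval 0.88 to 2.27). Egr2 had 2 counts in siNr1h2 and 23 in siNT (log2 -2.23, interval -6.07 to -0.92). Both rest on fewer than 100 counts.

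The other genes differed little between the day 2 libraries. Egr1 had 7.74 CPM in siNr1h2 and 6.91 CPM in siNT (log2 0.16, interval -0.11 to 0.43), Jun 15.8 and 16.1 CPM in siNr1h2 and siNT (log2 -0.02, interval -0.21 to 0.16), and Dusp1 17.9 and 19.6 CPM (log2 -0.13, interval -0.30 to 0.04). Junb, at 11.0 CPM in siNr1h2 and 13.4 CPM in siNT, had an interval below equality (log2 -0.28, interval -0.49 to -0.07), and so had Ier2, at 101 CPM in siNr1h2 and 106 CPM in siNT (log2 -0.07, interval -0.14 to -0.002). Fosb had 11 counts in siNr1h2 and 28 in siNT, Ier3 had 37 in siNr1h2 and 42 in siNT, and Egr3 had 2 in siNr1h2 and 12 in siNT. The intervals of Fosb, Ier3 and Egr3 all included equality. Of the wider list 0 of 49 passed 2-fold, and 0 of the 8 ERK feedback genes did, where 3.66% of all genes differed.

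Against untreated EPSC, the siNT blastoids were lower in 7 of 9 immediate-early genes and higher in 0, where 25.8% of 14496 genes differed, 14.5% higher and 11.3% lower. Fos stood at 0.711 CPM in siNT blastoids and 28.7 CPM in EPSC (log2 -5.24), Egr1 at 6.91 CPM in siNT blastoids and 72.2 CPM in EPSC (log2 -3.38), Fosb at -2.86, Ier3 at -1.70, Junb at -1.24, Egr2 at -1.10 and Ier2 at -1.01. Jun differed the other way, at 16.1 CPM in siNT blastoids and 9.22 CPM in EPSC (log2 0.80), short of 2-fold. Against T09-treated EPSC the values lay otherwise for Egr1, at 6.91 CPM in siNT blastoids and 3.04 CPM in T09-treated EPSC, and for Fosb, at 0.711 CPM in siNT blastoids and 0.198 CPM in T09-treated EPSC. Fos was at 0.711 CPM in siNT blastoids and 1.26 CPM in T09-treated EPSC, so siNT blastoids held less of it than either EPSC library.

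ERK feedback genes were set the other way in that pair. Of 8, 5 were at least 2-fold higher in siNT blastoids than in EPSC and 0 lower, with Spry4 at 153 CPM in siNT blastoids and 32.7 CPM in EPSC (log2 2.23) and Dusp6 at 109 CPM in siNT blastoids and 32.4 CPM in EPSC (log2 1.75). In the wider list 12 of 50 were higher and 13 lower. Dusp4 stood at 140 CPM in siNT blastoids and 6.73 CPM in EPSC (log2 4.37), and Socs3 at 10.3 CPM in siNT blastoids and 64.5 CPM in EPSC (log2 -2.65). Hspa1a and Hspa1b, heat shock genes that handling can induce, stood at 3.58 and 19.5 CPM in siNT blastoids and at 0.602 and 5.13 CPM in EPSC. Of all 11 heat shock genes 3 were higher and 0 lower, where 14.5% of all genes were higher and 11.3% lower. The 11 genes summed to 10841 CPM in siNT blastoids and 11616 CPM in EPSC. Their part in the immediate-early levels was not tested.

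**Figure D4:**
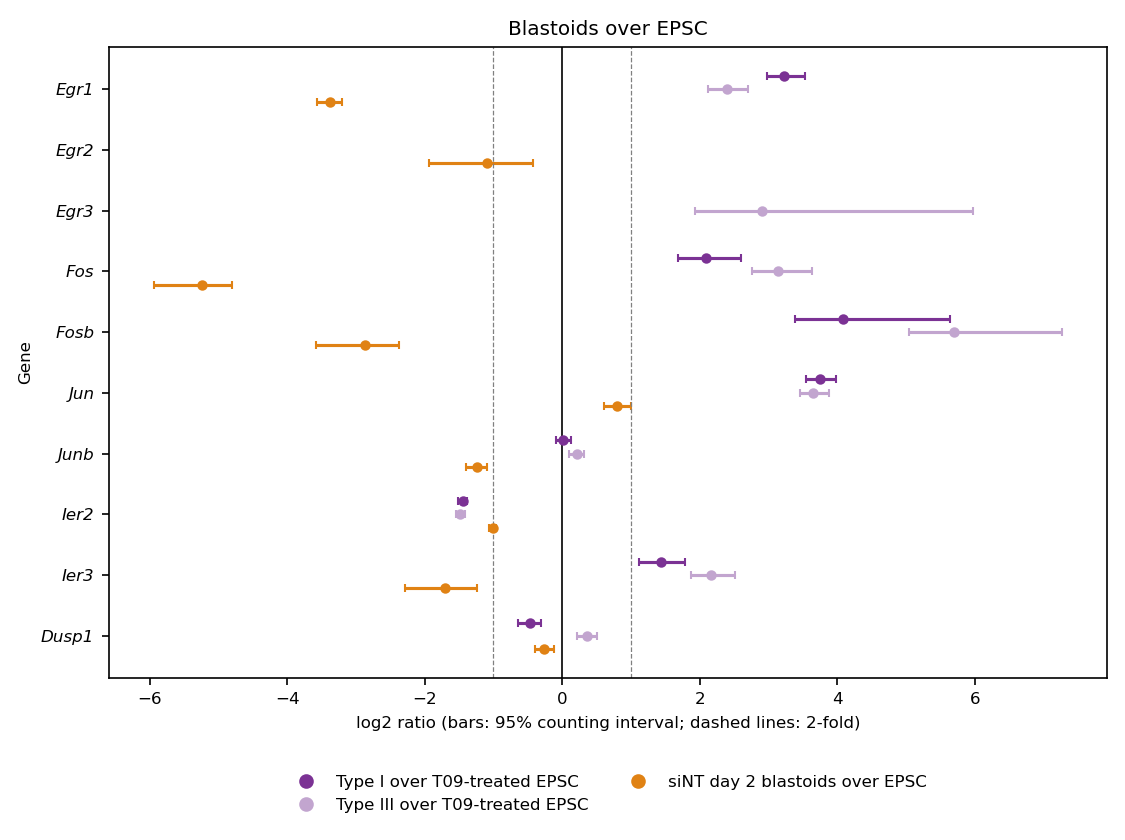
Log2 ratio (horizontal) of Type I and Type III day 5 blastoids over T09-treated EPSC and of siNT day 2 blastoids over untreated EPSC for each gene (vertical), 1 library per group, with 95% counting intervals as bars and dashed lines at 2-fold. Jun lies at 3.74 and 3.65 in the day 5 blastoids, and Fos and Egr1 lie above 0 at day 5 and below 0 at day 2, against different EPSC libraries.

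In day 5 blastoids, Jun reached the highest levels of the series. It stood at 65.6 CPM in Type I and 61.5 CPM in Type III, against 4.84 CPM in T09-treated EPSC, log2 ratios of 3.74 (interval 3.55 to 3.98) and 3.65 (3.45 to 3.89). The lowest day 5 value of Jun was above the highest elsewhere, 16.1 CPM in siNT blastoids. Ier2 was the reverse, at 79.7 CPM in Type I and 77.9 CPM in Type III, against 217 CPM in T09-treated EPSC (log2 -1.45 and -1.48), and these were its lowest levels in the series. The labels of both types include T09-treated EPSC, whereas the day 2 blastoids carry no T09 label, so day and T09 history cannot be told apart between them.

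Relative to T09-treated EPSC, 5 of 8 immediate-early genes were at least 2-fold higher in Type I and 1 lower, where 40.8% of 14378 genes differed (22.7% higher and 18.1% lower), and 6 of 9 were higher in Type III and 1 lower, where 37.7% of 14395 differed (21.7% higher and 16.0% lower). These 2 comparisons share the T09-treated EPSC library, in which Egr1, Fos and Fosb were low. Fosb had 150 counts in Type I, 428 in Type III and 8 in T09-treated EPSC (log2 4.08 and 5.70). Fos stood at 5.52 CPM in Type I, 11.5 CPM in Type III and 1.26 CPM in T09-treated EPSC (log2 2.09 and 3.13). Egr1 stood at 28.9 CPM in Type I, 16.2 CPM in Type III and 3.04 CPM in T09-treated EPSC. Ier3 stood at 7.08 CPM in Type I, 11.8 CPM in Type III and 2.59 CPM in T09-treated EPSC. Egr3 had 10 counts in Type I, 30 in Type III and 3 in T09-treated EPSC. Egr2 had 13 counts in Type I, 15 in Type III and 0 in T09-treated EPSC. With the 0 counts set at the 3-count limit it was 4.89-fold higher in Type I and 6.16-fold higher in Type III. Its intervals reached down to log2 1.78 and 2.14.

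Between the day 5 types, 3 of 9 genes were at least 2-fold lower in Type I than in Type III and 0 higher, where 7.68% of 13907 genes differed, 1.93% higher and 5.75% lower. These were Fosb (log2 -1.63, interval -1.92 to -1.37), Egr3 (-1.53, interval -2.91 to -0.64, on 10 and 30 counts) and Fos (-1.05, interval -1.31 to -0.80), the last just past 2-fold. Dusp1 stood at 14.0 CPM in Type I and 25.1 CPM in Type III (log2 -0.83) and Ier3 at log2 -0.74 (interval -0.98 to -0.51). Egr1 was set the other way, at 28.9 CPM in Type I and 16.2 CPM in Type III (log2 0.84, interval 0.69 to 0.99), so Egr1 and Fos, alike in the stem cells, parted here. Jun, Junb and Ier2 lay within 0.20 log2 units of equality. Pluripotency markers differed between the types, summing to 295 CPM in Type I and 664 CPM in Type III with all 5 at least 2-fold lower in Type I. So did Hspa1a, the 1 of 11 heat shock genes past 2-fold, at 1.34 CPM in Type I and 3.29 CPM in Type III. The liver X receptor target Abca1 stood at 207 CPM in Type I and 5.38 CPM in Type III, although both carry the T09 label. The part of these markers, of Hspa1a and of Abca1 in these ratios was not tested.

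The relatives of Jun and Fos filled in the day 5 picture. Fosl2 stood at 20.6 CPM in Type I and 19.6 CPM in Type III, against 0.346 CPM in T09-treated EPSC, and Atf3, a stress-induced partner of Jun, at 22.7 CPM in Type III and 1.21 CPM in T09-treated EPSC, with a log2 ratio of 3.37 in Type I. Maff stood at 18.8 CPM in Type I, 22.2 CPM in Type III and 2.40 CPM in T09-treated EPSC. Against T09-treated EPSC, 22.7% of all genes were higher and 18.1% lower in Type I, and 21.7% higher and 16.0% lower in Type III. The wider list had 21 of 49 genes higher and 11 lower in Type I and 20 of 49 higher and 10 lower in Type III. Among those lower were Socs3, at 7.88 CPM in Type I, 8.21 CPM in Type III and 169 CPM in T09-treated EPSC, Arc, an immediate-early gene known from neurons, at 1.09, 2.07 and 36.9 CPM, and Egr4, with 0, 2 and 59 counts in the same order. These examples were chosen after their values were seen. ERK feedback genes had 0 of 8 higher and 5 lower in Type I, and 0 higher and 3 lower in Type III, with Etv5, an ETS factor gene induced by FGF, at 97.9, 140 and 373 CPM. Hypoxia genes had 11 of 12 higher in Type I and 10 of 12 in Type III, and their part was not tested.

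**Figure D5:**
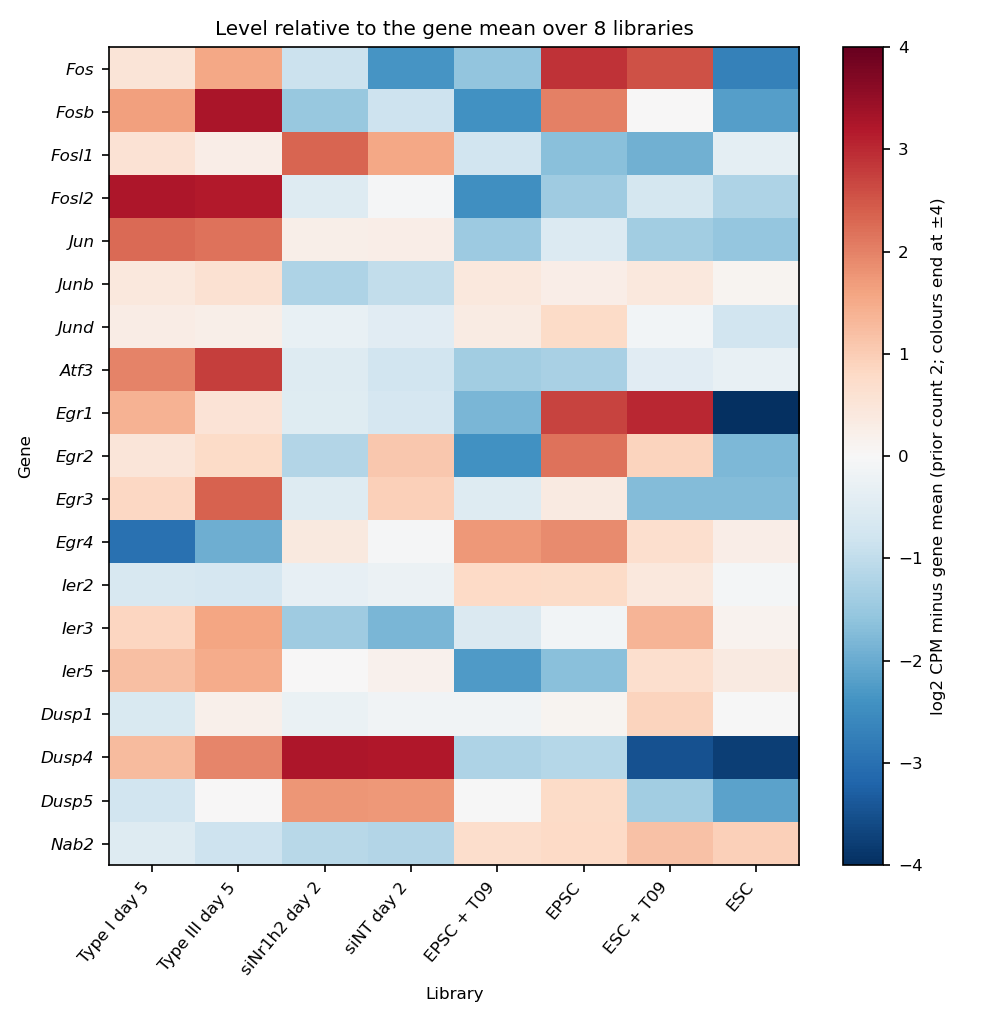
Level of each of 19 genes (rows) in the 8 libraries (columns), as log2 CPM minus the mean of that gene, red above and blue below its own mean, with colours ending at 4 log2 units. Fos, Egr1 and Egr2 are red in untreated EPSC and T09-treated ESC, Fosl2, Jun and Atf3 are red in the day 5 blastoids, and Dusp4 and Dusp5 are red in the day 2 blastoids. These are not the only red libraries. Egr2 is also red in siNT blastoids, at 0.584 CPM against 0.502 CPM in T09-treated ESC, Fos also in Type III and Egr1 also in Type I.

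The 10 genes did not share 1 profile. Over the 8 libraries, which share a cell line and in part a parent culture, the Pearson correlation of log2 levels was 0.89 between Egr1 and Fos, 0.79 between Egr1 and Egr2, 0.77 between Fos and Fosb, and 0.69 between Egr1 and Fosb. It was 0.84 between Jun and Egr3 and 0.85 between Ier3 and Junb. Egr1 and Jun reached 0.30, and Jun and Ier2 -0.80. The order of single genes held only in part beyond counting error. For Egr1 every step in the order of libraries exceeded it except that from siNr1h2 to siNT, whereas for Dusp1 the 6 libraries from Type III down to siNr1h2 formed a run without a step past it between neighbours. The ends of that run still lay apart, at 25.1 CPM in Type III (interval 23.4 to 26.8) and 17.9 CPM in siNr1h2 (16.3 to 19.6).

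Among 8080 other genes with at least 50 counts in 1 library and a 2-fold range, the profile most like that of Egr1 over the 8 libraries was Nfil3, a leucine zipper repressor gene that is also on the wider list, with a Pearson correlation of 0.83. It stood at 2.99 CPM in T09-treated EPSC and 6.02 CPM in EPSC, and at 6.03 CPM in T09-treated ESC and 3.47 CPM in ESC. Apoo, Usp43 and Neil2 followed, at 0.77, 0.74 and 0.74. The member Fos lay nearer to Egr1 than any of these. Among those most like Jun were Slc13a4, Fhdc1, Chsy3 and Stxbp5, at 0.99 or above to 2 decimals, and each of these was high in the 2 day 5 libraries, on which these correlations rest.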

How the data were processed

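The authors deposited raw counts per gene symbol, as whole numbers, for 24888 genes in 8 columns of 1 library each, made per the labels' protocols from DNase-treated total RNA with a directional kit. STAR, Cuffnorm, HTSeq and the build mm9 are named per the submitters' processing notes, while versions, annotation and strand setting are not given in the sources used here. Counts were scaled with TMM factors (0.965 to 1.07) from edgeR 4.0.16 in R 4.3.3. Ratios of 9 pairs of libraries were taken on the log2 scale after adding a prior count of 2, each with a 95% exact conditional (Clopper-Pearson) interval, using Python 3.11.15 and scipy 1.17.1. No molecular identifiers are named, so reads may be copies of 1 molecule, and the intervals and floors hold for counting error alone. Levels carry exact Poisson intervals. Differences of T09 ratios carry normal intervals. With 1 library per group there was no test and no p-value.

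The genes, lists and comparisons were chosen with earlier results of these data known. All 10 genes are named, with up to 4 higher and 4 lower of each further list in the first 6 comparisons, marker genes by level, and the 5 genes closest to Egr1 and to Jun. Some genes that this rule names are not reported here. Genes named beyond this were chosen after their values were seen. Alternatives were RLE size factors, library totals, count minimums of 0 and 100, thresholds of 1.5-fold and 4-fold, an assumed coefficient of variation of 0.2, prior counts of 0.5 and 10, and rank correlation.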

Additional observations from a re-analysis of the deposited data

Results flagged for a closer look

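Between T09-treated and untreated libraries, the genes named here had counting intervals on opposite sides of equality in ESC and in EPSC, with 1 library on each side, and the difference was not tested. The genes were listed for this pattern, so it is a description. The T09 log2 ratio of ESC minus that of EPSC was 12.29 for Egr1, 9.69 for Fos, 6.68 for Fosb, 1.68 for Ier3 and 1.16 for Dusp1. Egr2 had 0 counts with T09 in EPSC and 50 without. With the 0 counts set at the count limit given above, Egr2 was 17.7-fold lower with T09 there. Its interval reached up to log2 -3.79, so 17.7-fold is not a lower bound. In ESC Egr2 had 18 counts with T09 and 1 without.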

How the results depend on the processing

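With no replicates, culture-to-culture spread could not be set against any difference, and genes with at most 50 counts such as Egr2 and Egr3 are limited by depth. No paired analysis was possible because each group held 1 library. Of 69 recounts of the genes past 2-fold and of the likeness lists, 62 stayed within 1.5 times. At 4-fold the count was 3 for EPSC over ESC with T09, 1 for siNr1h2 over siNT, 0 for Type I over Type III and 3 for siNT blastoids over EPSC. At 1.5-fold it was 6 for Type I over Type III, and with a minimum of 100 counts it was 0 for siNr1h2 over siNT. Rank correlation kept 1 of the 10 genes most like Egr1 or Jun and a prior count of 10 kept 7. Of 360 single ratios, 346 stayed within their counting interval, 13 left it with a prior count of 10 and 1 with library totals, and none that had passed 2-fold changed sign. Ier2 in siNT blastoids over EPSC dropped under 2-fold with RLE size factors and with library totals, and Jun in untreated EPSC over ESC passed it with library totals.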
